A study of Mus musculus with 7 samples.

Results

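Platelets are the small, anucleate cells of the blood that stop bleeding, and they are shed by megakaryocytes of the bone marrow and lung. A panel of 31 genes that mark these cells or serve their adhesion, activation, secretion and formation was read out in whole abdominal aorta. The members were chosen by gene symbol, with earlier results of these data known. All 31 were found among the 32544 genes of the deposited table. Of these, 30 passed the filter on low values (mean log2 of CPM + 1 of at least 1 over all libraries) and were tested, and Gfi1b did not.

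The aortas came from male Apoe-/- mice on a high-fat diet for 12 weeks, a model in which the missing apolipoprotein E leads to atherosclerotic plaques. The mice were injected into a vein 1 time a week with 50 mg/kg of ITA-LNP (3 libraries, titled ITA-NP) or of the control particle (4 libraries, titled control-NP, here control-LNP). LNP commonly stands for lipid nanoparticle. The series title names itaconate, a metabolite of activated macrophages, and ITA is read here as its short form. The knockout and the diet were shared by both groups, and no group without particles, without the diet or with a working Apoe gene was analysed here. Libraries were made by 3′ mRNA sequencing, in which a transcript gives reads from its 3′ end whatever its length, so levels in CPM (reads per 1000000 assigned reads) can be set side by side between genes. Whether different libraries stem from different mice is not labelled. The p-values therefore measure only library-to-library spread, part of which may be technical.

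Before the members are described, 2 features of the libraries bear on all of them. The labelled tissue was checked against markers of the vessel wall: 5 smooth muscle markers summed to 15904 to 19353 CPM with ITA-LNP but to only 112 to 207 CPM in the control-LNP libraries, with none of the 5 at 0 in all libraries of a group. The defining marker Acta2, smooth muscle actin, was at 10802 ± 1557 CPM with ITA-LNP and 98.9 ± 29.8 CPM with control-LNP (SD, n = 3 and 4). The libraries labelled control-LNP thus held few reads of aortic wall markers, and markers of blood cells stood high in them. Control-LNP replicate 2 also stood apart from the other controls, with 10846 genes detected against 14232 to 15333, and values that rest on it are given with and without it. Depth was 5077073 to 7281721 reads per library, and the limit that 0 reads allow (3 reads) was 0.412 to 0.591 CPM, for counting error alone. Apoe itself was counted in every library, at 1330.4, 1326 and 1643 CPM with ITA-LNP and 263, 856, 268 and 274 CPM with control-LNP, and since the position of these reads relative to the disrupted part of the gene was not examined, they do not check the genotype.

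Platelets bind damaged vessel wall through the GPIb-IX-V complex, which holds von Willebrand factor, and through the collagen receptor GPVI. They are then activated by thrombin, ADP and thromboxane through G protein-coupled receptors, and cross-link by way of the integrin αIIbβ3, which binds fibrinogen. Having no nucleus, a platelet carries the transcripts it received from its megakaryocyte. In atherosclerosis platelets adhere to inflamed endothelium and release chemokines, and platelets are also part of any blood left in a vessel.

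The members as a group were far lower in the ITA-LNP libraries. Their summed level was 975, 686 and 845 CPM in ITA-LNP replicates 1 to 3 and 20888, 21218, 15644 and 20214 CPM in control-LNP replicates 1 to 4, the order in which values are listed throughout. The sums averaged 835 ± 145 CPM with ITA-LNP and 19491 ± 2598 CPM with control-LNP (SD, n = 3 and 4), 23.3 times as high in the control-LNP libraries and 22.6 times without control-LNP replicate 2. Of the 30 members tested, 21 were lower with ITA-LNP and 0 higher, while 9 did not pass (limma-trend, Benjamini-Hochberg adjusted p under 0.05 over 12636 genes). In the same comparison 5.15% of all tested genes were lower and 10.3% higher, or 651 and 1306 genes. When each library was centred on its median, the split turned to 1249 lower and 741 higher, with 23 members lower. Unadjusted limma-trend p was under 0.05 for 23 members, each with a negative fold change. The share of all tested genes at that unadjusted level was not counted, but is at least the 15.5% that passed after adjustment in either direction. Without control-LNP replicate 2 the members lower numbered 26, against 15.7% of all tested genes lower and 15.7% higher. All 3 ITA-LNP values lay below all 4 control-LNP values for 23 members, as they did for 10.7% of tested genes. Among the 23, Itga2 had 1 read in both ITA-LNP replicate 3 and control-LNP replicate 2, which only depth set apart. P2ry1 had 1 read in control-LNP replicate 2 against 0 in each ITA-LNP library. Of the 30 tested, 11 passed the filter through the level of 1 group alone: Gp1ba, Gp9, Gp6, Itga2, P2ry1, F2rl2, F2rl3, G6b, Treml1, Fermt3 and Tubb1. These counts therefore describe the panel and do not stand as a test of it. In bulk tissue, fewer platelets and less RNA per platelet cannot be told apart. The libraries also differed in what they held: smooth muscle markers summed to 112 to 207 CPM in the controls and 15904 to 19353 CPM with ITA-LNP, and B cell and T cell markers were 22.6 and 15.2 times as high in the controls. Whether the control-LNP libraries represent aortic wall as labelled is therefore in doubt, and the particle given and the make-up of the tissue sampled cannot be told apart as sources of the members' difference.

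**Figure D1:**
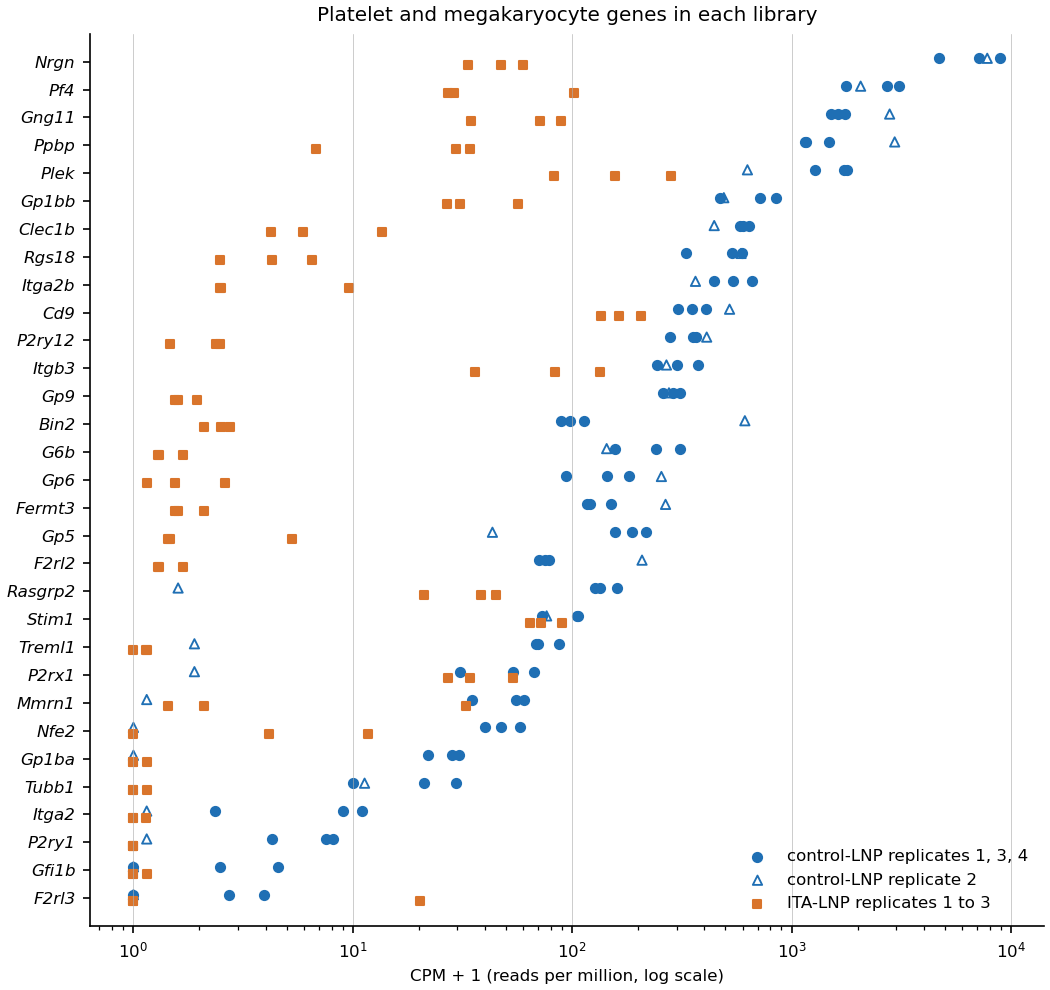
Level of each of the 31 members, ordered by control-LNP mean, as CPM + 1 on a log scale with 1 point per library (filled circles for control-LNP replicates 1, 3 and 4, open triangles for control-LNP replicate 2, squares for ITA-LNP). Nrgn lies at 4684 to 8957 CPM in the controls and at 32.5 to 58.8 CPM with ITA-LNP, while the groups overlap for Stim1 and P2rx1.

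The chemokines stored in platelet granules were among the most abundant members. Pf4 (chromosome 5, 90772435 to 90773383, mm10), which encodes platelet factor 4, was at 101, 26.2 and 27.9 CPM with ITA-LNP and 1775, 2065, 2737 and 3081 CPM with control-LNP. The groups did not overlap, and ITA-LNP replicate 1 held the highest of the 3 ITA-LNP levels, over 3 times the others. Its log2 fold change of CPM + 1 was -5.77 ± 0.47 (SE; adjusted p = 8.96e-05). Ppbp (chromosome 5, 90768518 to 90770063), the neighbouring gene, which encodes the precursor of the neutrophil-attracting chemokine NAP-2, was at 28.5, 33.3 and 5.77 CPM with ITA-LNP and 1153, 2952, 1166 and 1484 CPM with control-LNP (-6.36 ± 0.60, adjusted p = 0.000194). Here control-LNP replicate 2 was the highest library and ITA-LNP replicate 3 the lowest. The ratio of Pf4 to Ppbp reads was 0.699 to 2.35 with control-LNP and 0.788 to 4.83 with ITA-LNP, ranges that overlap.

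In the GPIb-IX-V complex, the receptor for von Willebrand factor, 3 of 4 subunits were lower. Gp9 (chromosome 6, 87778072 to 87779768) was at 0.941, 0.589 and 0.549 CPM with ITA-LNP and 286, 275, 258 and 308 CPM with control-LNP, a narrow spread within each group and a mean with ITA-LNP of 0.246% of the control-LNP mean (-7.39 ± 0.58, adjusted p = 7.67e-05). Gp5 (chromosome 16, 30307685 to 30310779) was at 0.471, 0.442 and 4.26 CPM with ITA-LNP and 217, 42.3, 156 and 186 CPM with control-LNP (-5.85 ± 0.87, adjusted p = 0.00181). Its lowest control was replicate 2, still 9 times or more above every ITA-LNP library. Gp1ba (chromosome 11, 70639122 to 70642036), the subunit that contacts von Willebrand factor, was read 1 time in the 3 ITA-LNP libraries, all in replicate 2, and at 21.1, 0, 29.6 and 27.2 CPM in the controls. Control-LNP replicate 2 therefore overlapped with ITA-LNP, and the fold change did not pass (-3.49 ± 1.26, adjusted p = 0.101), though it did without that library (-4.67 ± 0.61, adjusted p = 0.00108). From 427 control-LNP reads, the pooled ratio of control-LNP to ITA-LNP was 378, with a 95% exact interval of 67.6 to 14984 for counting error only. Gp1bb (chromosome 16, 18620317 to 18622403) kept the highest level of the complex with ITA-LNP, at 29.96, 25.8 and 55.8 CPM with ITA-LNP and 845, 490.4, 471 and 714 CPM with control-LNP (-4.08 ± 0.42, adjusted p = 0.000277). It shares its stretch of chromosome 16 with Sept5 on the same strand, and the counting could have split reads between them. Sept5 was at 11.4, 16.7 and 11.4 CPM with ITA-LNP and 0, 0.149, 0 and 0 CPM with control-LNP, so the ITA-LNP level of Gp1bb is uncertain. The ratio of Gp9 to Gp1bb was 0.338 to 0.561 with control-LNP and 0.00985 to 0.0314 with ITA-LNP.

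Both receptors that signal through tyrosine motifs on contact with collagen or podoplanin were lower. Gp6 (chromosome 7, 4363965 to 4397744), the collagen receptor GPVI, was at 0.157, 1.62 and 0.549 CPM with ITA-LNP and 180.4, 254, 92.5 and 144 CPM with control-LNP (-6.56 ± 0.72, adjusted p = 0.000401), and Clec1b (chromosome 6, 129397297 to 129409335), the podoplanin receptor CLEC-2, at 12.5, 3.24 and 4.94 CPM with ITA-LNP and 583, 443, 600.1 and 639 CPM with control-LNP (-6.33 ± 0.52, adjusted p = 8.96e-05). Clec1b overlaps Clec9a on the same strand, and how the counting treated reads shared by them is not given in the sources used here. No ITA-LNP library came near the lowest control for Gp6 or Clec1b. G6b (chromosome 17, 35062693 to 35066184, annotated as Mpig6b), which carries inhibitory motifs and restrains this signalling, was at 0.314, 0.295 and 0.687 CPM with ITA-LNP and 309.8, 143, 156 and 241 CPM with control-LNP, or 0.203% of the control-LNP mean (-7.16 ± 0.67, adjusted p = 0.000174). These ITA-LNP values rest on 9 reads in all. Treml1 (chromosome 17, 48359916 to 48367176), a receptor of platelet granules, had 2 ITA-LNP reads and was at 69.1, 0.897, 67.7 and 85.9 CPM in the controls. It just passed (-4.77 ± 1.39, adjusted p = 0.0456), and over 19 alternative settings its adjusted p ranged from 1.73e-05 to 0.132, with the call lost on leaving out any 1 library other than control-LNP replicate 2. Cd9 (chromosome 6, 125460266 to 125494791), a tetraspanin of platelets that smooth muscle, fibroblasts and macrophages also carry, was at 205, 135 and 162 CPM with ITA-LNP and 405, 521, 303 and 352 CPM with control-LNP, separate by less than 2 times at the nearest values (-1.23 ± 0.33, adjusted p = 0.0328). The call was lost on leaving out any ITA-LNP library, or control-LNP replicate 1 or 4 (highest adjusted p 0.188 over the alternatives).

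Both chains of the fibrinogen receptor were lower, and the ratio between them differed as well. Itga2b (chromosome 11, 102453297 to 102470122), the αIIb chain, was at 8.63, 1.47 and 1.51 CPM with ITA-LNP and 661, 364, 441 and 543 CPM with control-LNP (-6.97 ± 0.63, adjusted p = 0.000139), with ITA-LNP replicate 1 the highest of the 3. Itgb3 (chromosome 11, 104608000 to 104670476), the β3 chain, which smooth muscle, endothelium and macrophages also make as part of αvβ3, was at 82.8, 133 and 34.9 CPM with ITA-LNP and 374, 268, 243 and 298 CPM with control-LNP. The groups were separate but closer, with a log2 fold change of -1.99 ± 0.49 (adjusted p = 0.0210) whose call was lost when ITA-LNP replicate 1, ITA-LNP replicate 3, control-LNP replicate 1 or control-LNP replicate 4 was left out (highest adjusted p 0.0854 over the alternatives). The ratio of Itga2b to Itgb3 was 1.36 to 1.82 with control-LNP and 0.0111 to 0.104 with ITA-LNP, so the β3 transcript outnumbered the αIIb transcript in each ITA-LNP library and in none of the controls. Itga2 (chromosome 13, 114833081 to 114932100), the α2 chain of the collagen-binding integrin, was low everywhere, with 1 ITA-LNP read and 10.04, 0.149, 1.35 and 8.04 CPM in the controls. It did not pass (-1.96 ± 0.91, adjusted p = 0.188), and did without control-LNP replicate 2 (adjusted p = 0.0268).

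The receptors for ADP, ATP and thrombin split by gene. P2ry12 (chromosome 3, 59216272 to 59262871), the ADP receptor that clopidogrel blocks, was at 0.471, 1.47 and 1.37 CPM with ITA-LNP and 353, 409, 278 and 366 CPM with control-LNP, with a mean ITA-LNP level of 0.315% of control-LNP (-7.41 ± 0.57, adjusted p = 6.96e-05). It lies within Med12l on the other strand, and strand handling in the counting is not given in the sources used here. P2ry1 (chromosome 3, 61002795 to 61008982), the second ADP receptor, had 0 reads in all ITA-LNP libraries and 7.09, 0.149, 6.54 and 3.28 CPM in the controls, so its mean was at least 9.06-fold lower, taking 3 reads in each ITA-LNP library as the limit. Its test did not pass (-2.06 ± 0.83, adjusted p = 0.133), and did without control-LNP replicate 2 (adjusted p = 0.00683). P2rx1 (chromosome 11, 72999103 to 73015200), the ATP-gated channel, which arterial smooth muscle also expresses, was at 52.5, 26.1 and 33.2 CPM with ITA-LNP and 66.2, 0.897, 29.8 and 52.6 CPM with control-LNP. Its ITA-LNP libraries lay within the range of the controls, and the fold change did not pass (0.78 ± 1.20, adjusted p = 0.734, 95% interval -1.91 to 3.46), turning to -0.39 without control-LNP replicate 2 (adjusted p = 0.543). F2rl2 (chromosome 13, 95696853 to 95702739), which encodes the thrombin co-receptor PAR3, was at 0.314, 0.295 and 0.687 CPM with ITA-LNP and 77.2, 207, 69.6 and 73.96 CPM with control-LNP (-6.08 ± 0.78, adjusted p = 0.000876). It lies within Iqgap2 on the other strand. F2rl3 (chromosome 8, 72761880 to 72763874), which encodes PAR4, the thrombin receptor of mouse platelets, was seen in 1 ITA-LNP library, with 140 reads in replicate 3 and 0 in the other two, and in the controls at 2.95, 0, 1.73 and 0 CPM (0.59 ± 1.15, adjusted p = 0.796).

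**Figure D2:**
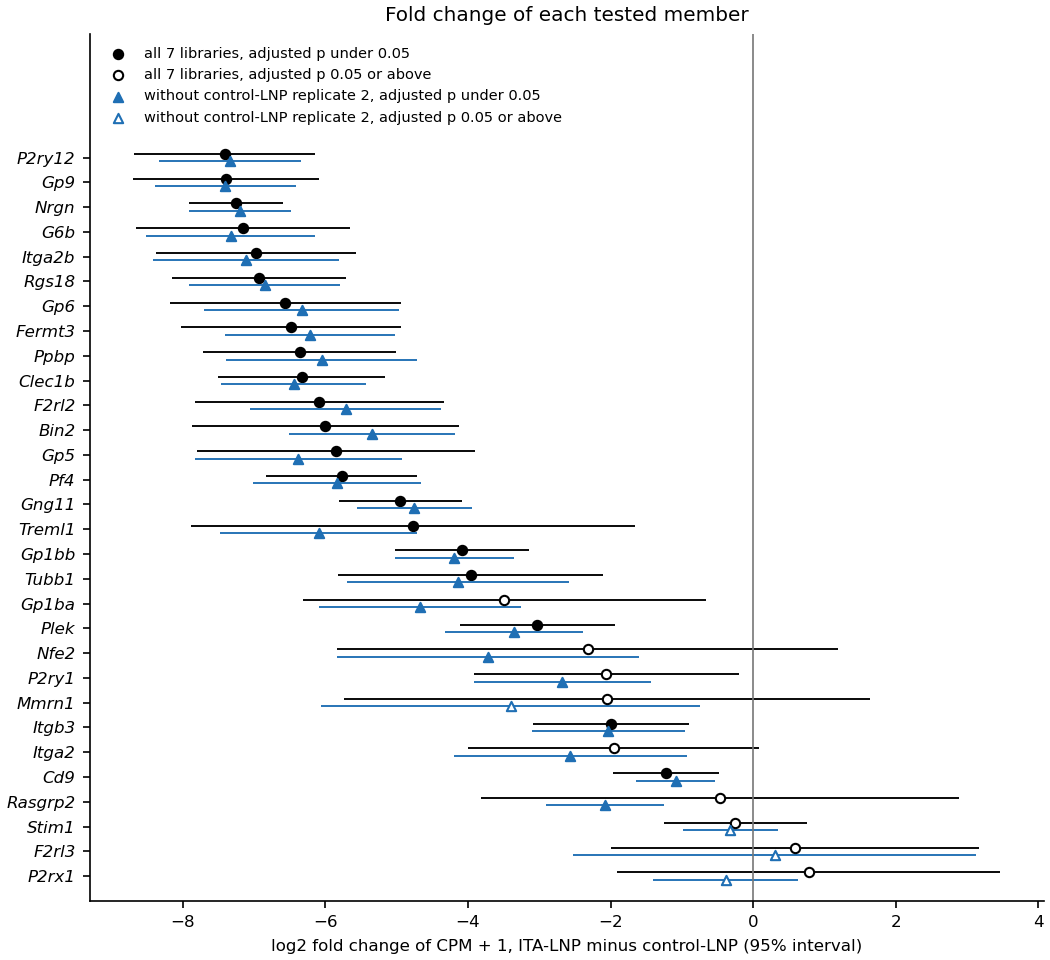
Log2 fold change of CPM + 1 (ITA-LNP minus control-LNP) of the 30 tested members with its 95% interval, ordered by size (circles, all 7 libraries; triangles, without control-LNP replicate 2; filled, adjusted p under 0.05). Estimates run from -7.41 for P2ry12 to 0.78 for P2rx1, and the intervals of Rasgrp2 and Nfe2 hold 0 with all libraries and not without that one.

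Of the 8 signalling proteins, 6 were lower. Nrgn (chromosome 9, 37544492 to 37552904), a calmodulin-binding protein best known from neurons, was the most abundant member in the controls, at 8957, 7801, 4684 and 7119 CPM in the control-LNP libraries and 32.5, 46.6 and 58.8 CPM in the ITA-LNP libraries (-7.25 ± 0.30, adjusted p = 2.65e-06). Gng11 (chromosome 6, 4003904 to 4008445), a G protein γ subunit, was at 1515, 2800.2, 1744 and 1624 CPM in the control-LNP libraries and 88.3, 70.4 and 33.5 CPM in the ITA-LNP libraries (-4.95 ± 0.39, adjusted p = 7.67e-05). Plek (chromosome 11, 16971206 to 17052381), which encodes pleckstrin, the main protein kinase C substrate of platelets and one shared by leukocytes, was at 1792, 629, 1276 and 1733 CPM in the control-LNP libraries and 156, 81.9 and 281 CPM in the ITA-LNP libraries (-3.03 ± 0.49, adjusted p = 0.00259). For all 3 the groups were separate, but the ITA-LNP mean was 0.643% of the control-LNP mean for Nrgn, 3.34% for Gng11 and 12.8% for Plek. Rgs18 (chromosome 1, 144752683 to 144775435), which shortens G protein signals, was at 3.29, 1.47 and 5.49 CPM with ITA-LNP and 592, 588, 331 and 536 CPM with control-LNP (-6.93 ± 0.55, adjusted p = 7.67e-05). Fermt3 (chromosome 19, 6998958 to 7019469), which encodes kindlin-3, needed to switch integrins to their binding state, was at 1.098, 0.589 and 0.549 CPM with ITA-LNP and 149, 266, 116 and 120.2 CPM with control-LNP (-6.48 ± 0.69, adjusted p = 0.000330). Bin2 (chromosome 15, 100641077 to 100669553), a membrane-bending protein that partners STIM1 in platelets, was at 1.098, 1.77 and 1.51 CPM with ITA-LNP and 112, 612, 87.9 and 96.4 CPM with control-LNP (-6.00 ± 0.83, adjusted p = 0.00133). Its level in control-LNP replicate 2 was 6.19 times the mean of the other controls, and with voom on the reads its call was lost (adjusted p = 0.0591).

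Rasgrp2 (chromosome 19, 6399340 to 6415216), which encodes CalDAG-GEFI, the calcium-driven exchange factor that switches on Rap1 ahead of integrin activation, was at 43.8, 20.04 and 37.5 CPM with ITA-LNP and 132, 0.598, 126 and 159 CPM with control-LNP. In 3 controls it was 2 times or more above every ITA-LNP library, and in control-LNP replicate 2 it was nearly absent, so the fold change was -0.46 ± 1.50, adjusted p = 0.883 with all libraries and -2.08 ± 0.36, adjusted p = 0.00346 without that replicate. Stim1 (chromosome 7, 102267806 to 102437319), the calcium sensor of the endoplasmic reticulum that most cells express, was at 89.2, 63.1 and 71.4 CPM with ITA-LNP and 105, 75.5, 71.7 and 105 CPM with control-LNP. The groups overlapped, and the change did not pass (-0.25 ± 0.45, adjusted p = 0.777, 95% interval -1.25 to 0.75), an interval that holds lower and higher levels alike.

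The remaining members serve the cytoskeleton, the granules and the making of platelets. Tubb1 (chromosome 2, 174450695 to 174457882), the β1-tubulin of the ring of microtubules that keeps platelets discoid, had 1 ITA-LNP read and was at 28.6, 10.3, 9.04 and 20.2 CPM in the controls (-3.96 ± 0.83, adjusted p = 0.00953). Mmrn1 (chromosome 6, 60924976 to 60989378), a factor V-binding granule protein that endothelium also makes, was at 31.8, 0.442 and 1.099 CPM with ITA-LNP and 59.3, 0.149, 33.9 and 54.6 CPM with control-LNP. ITA-LNP replicate 1 held nearly all of the reads of its group, and the change did not pass (-2.05 ± 1.64, adjusted p = 0.471, adjusted p = 0.0572 without control-LNP replicate 2). Nfe2 (chromosome 15, 103248212 to 103258403), the transcription factor needed for platelet release, was at 3.14, 10.8 and 0 CPM with ITA-LNP and 46.5, 0, 57.1 and 39.2 CPM with control-LNP (-2.32 ± 1.56, adjusted p = 0.375), and passed without control-LNP replicate 2 (-3.72 ± 0.91, adjusted p = 0.0163). Gfi1b (chromosome 2, 28609450 to 28621982), a repressor of the erythroid and megakaryocyte lineages, was at 0.157, 0 and 0 CPM with ITA-LNP and 3.55, 0, 0 and 1.48 CPM with control-LNP, too low to be tested. From 1 ITA-LNP read and 27 control-LNP reads the ratio was 23.9, with a 95% exact counting interval of 3.94 to 979.9.

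The size of the difference varied widely among the members. The mean ITA-LNP level was under 1% of the control-LNP mean for 15 of the 31 members, under 5% for 21, under 10% for 22 and under 50% for 28, with a median of 1.15%. Among the lowest were Treml1 (0.175%), G6b (0.203%), Gp9 (0.246%), Gp1ba (0.252%), Tubb1 (0.289%) and P2ry12 (0.315%), leaving aside P2ry1 at 0 reads. Their order is not resolved, since Treml1 rests on 2 ITA-LNP reads and Gp1ba and Tubb1 on 1 each, with 95% counting intervals of the control-LNP to ITA-LNP ratio of 151 to 4517, 67.6 to 14984 and 60.7 to 13479. Highest among those below the control-LNP mean were Stim1 (83.5%) and Cd9 (42.3%), then Rasgrp2 (32.3%), Mmrn1 (30.1%) and Itgb3 (28.3%), with P2rx1 near equality at 99.7% (75.3% without control-LNP replicate 2). Only F2rl3 had a higher mean with ITA-LNP, from 1 library. Of the 31 members, 10 exceeded 10 CPM in all ITA-LNP libraries: Pf4, Gp1bb, Itgb3, P2rx1, Cd9, Rasgrp2, Plek, Gng11, Nrgn and Stim1. No single ITA-LNP library was highest throughout: replicate 1 was highest for 13 members, replicate 2 for 8 and replicate 3 for 9. The make-up of the summed level differed between the groups too. Nrgn gave 29.9% to 42.9% of it in the controls and 3.33% to 6.96% with ITA-LNP, whereas Cd9 gave 1.74% to 2.45% and 19.2% to 21.1%, and Stim1 0.356% to 0.518% and 8.45% to 9.196%. Plek, at 2.96% to 8.58% in the controls, made up 11.9% to 33.3% with ITA-LNP.

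**Figure D3:**
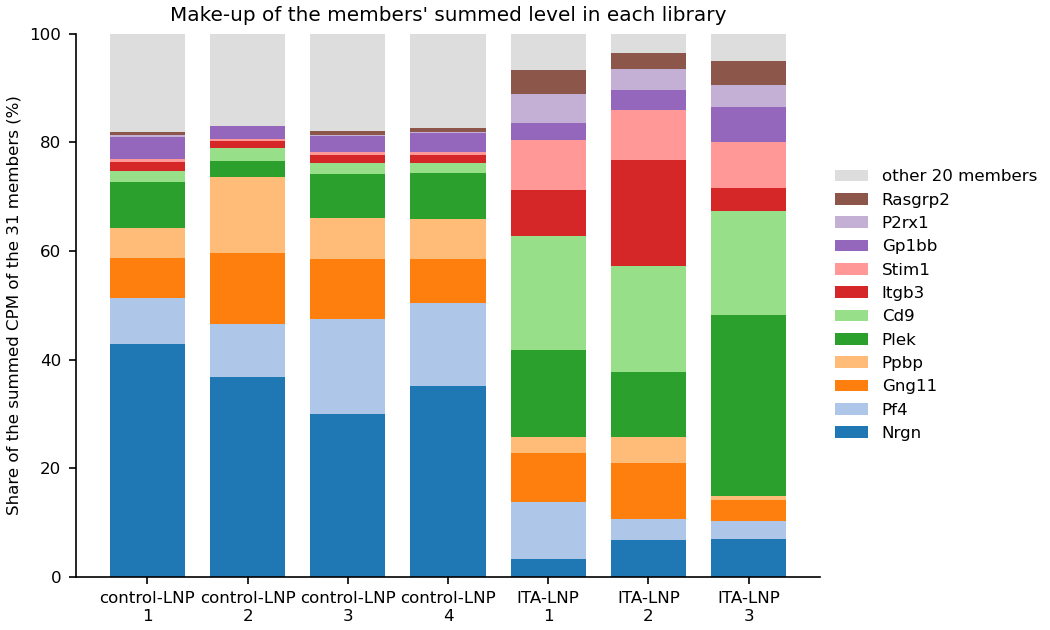
Share of the summed CPM of the 31 members that each of 11 members contributes in each library, as stacked bars from 0 to 100%, with the other 20 members pooled. Nrgn takes 29.9% to 42.9% in the 4 control-LNP bars and 3.33% to 6.96% in the 3 ITA-LNP bars, where Plek, Cd9, Itgb3 and Stim1 take larger shares.

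On log2(CPM + 1) of all tested genes, control-LNP replicate 2 correlated with the other controls at r = 0.607 to 0.625. Control-LNP replicates 1, 3 and 4 correlated with each other at 0.933 to 0.949. Among the members, replicate 2 differed from the other controls gene by gene and not in the summed level. In it the members summed to 21218 CPM, the highest of the 4 controls (the others, 15644 to 20888 CPM). Yet 10 members stood below 10% of the mean of replicates 1, 3 and 4: Gp1ba, Itga2, P2ry1, P2rx1, F2rl3, Treml1, Rasgrp2, Mmrn1, Nfe2 and Gfi1b. Of these, Gp1ba, F2rl3, Nfe2 and Gfi1b had 0 reads in replicate 2. F2rl3 also had 0 reads in replicate 4 and Gfi1b in replicate 3, so neither sets replicate 2 apart. Another 4, Ppbp, F2rl2, Fermt3 and Bin2, stood above 2 times that mean, Gp5 and Plek lay between 10% and 50% of it, and 15 were within 2 times. The 10 low members averaged at most 139 CPM in the other controls, and the members above that level were all detected in replicate 2, at 0.227 times the others' mean or more. Without this library 5 further members passed, Gp1ba, Itga2, P2ry1, Rasgrp2 and Nfe2, and none of the 21 was lost.

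**Figure D4:**
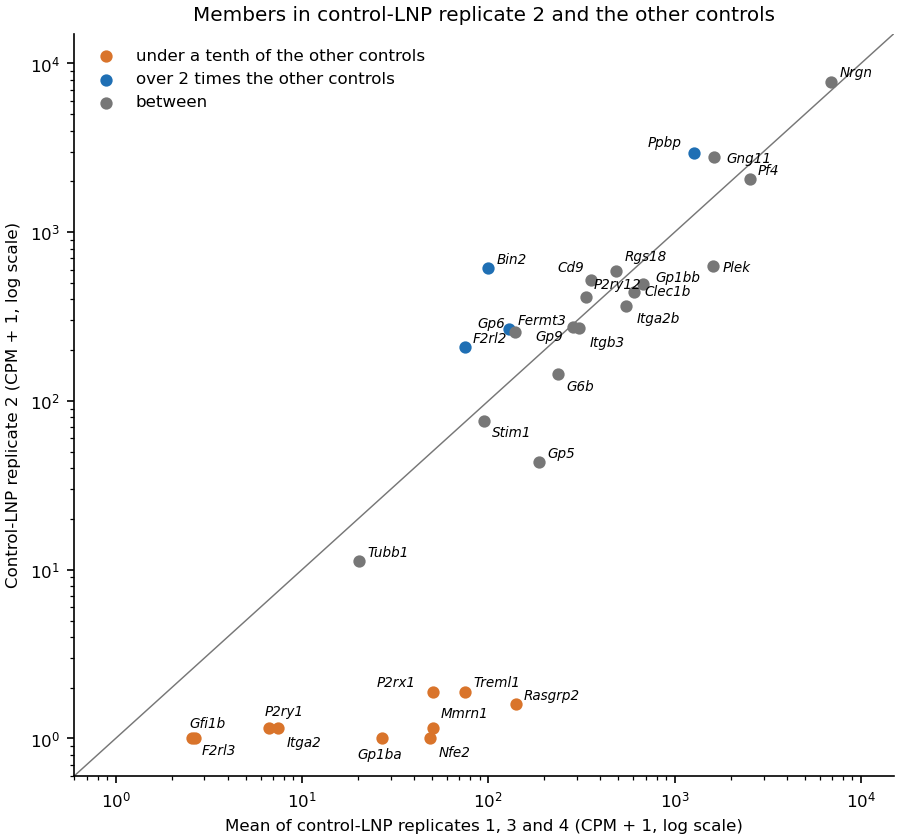
Each member's level in control-LNP replicate 2 (vertical axis) against the mean of control-LNP replicates 1, 3 and 4 (horizontal axis), both as CPM + 1 on log scales, with the line of equality. The 10 members under 10% of the other controls lie along the bottom, Rasgrp2 at 0.598 against 139 CPM, and Bin2 lies highest above the line at 612 against 98.8 CPM.

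As 21 members were lower together, the bases before their start sites were searched for letters bound by megakaryocyte transcription factors. GATA1, FLI1 and NF-E2, of which Nfe2 encodes a subunit, drive many of these genes. Windows of 250 bases before the RefSeq start (GRCm38.p6, the same assembly as mm10) were at hand for 26 of the 31 members. The GATA letters, AGATAA with A or T as the first and A or G as the last base, on either strand, were in the windows of 11 of 26 members (42.3%) and of 27.1% of 27025 genes. The ETS letters GGAAGT were in 9 members (34.6%) and in 20% of all windows, both kinds in 3 members (11.5%) and 5.01%, and the NF-E2 letters TGAGTCA in 1 member (3.85%), F2rl2, and 4.43%. Matches are a description and not sites, and no test was made. Shown are the windows of Pf4, of 4 members with low ITA-LNP levels and of Stim1, whose groups overlapped, with GATA and ETS letters of either strand in capitals.

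Pf4: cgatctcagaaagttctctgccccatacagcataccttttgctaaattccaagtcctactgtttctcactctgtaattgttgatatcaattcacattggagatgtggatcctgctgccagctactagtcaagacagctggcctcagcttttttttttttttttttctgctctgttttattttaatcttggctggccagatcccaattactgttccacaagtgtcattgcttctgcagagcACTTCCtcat
Gp9: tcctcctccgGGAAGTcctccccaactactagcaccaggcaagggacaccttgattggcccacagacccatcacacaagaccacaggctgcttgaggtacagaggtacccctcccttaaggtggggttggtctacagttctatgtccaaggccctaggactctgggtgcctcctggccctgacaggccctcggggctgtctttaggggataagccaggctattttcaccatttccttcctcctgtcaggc
Gp5: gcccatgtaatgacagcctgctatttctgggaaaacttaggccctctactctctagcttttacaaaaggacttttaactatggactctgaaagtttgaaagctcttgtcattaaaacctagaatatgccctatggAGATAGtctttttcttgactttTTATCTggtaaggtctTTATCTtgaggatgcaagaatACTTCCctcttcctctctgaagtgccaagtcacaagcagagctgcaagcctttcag
P2ry12: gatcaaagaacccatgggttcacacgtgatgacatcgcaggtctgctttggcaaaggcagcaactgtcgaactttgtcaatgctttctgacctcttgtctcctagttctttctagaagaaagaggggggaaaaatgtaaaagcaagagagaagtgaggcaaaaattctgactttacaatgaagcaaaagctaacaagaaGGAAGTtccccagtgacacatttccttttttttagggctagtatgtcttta
G6b: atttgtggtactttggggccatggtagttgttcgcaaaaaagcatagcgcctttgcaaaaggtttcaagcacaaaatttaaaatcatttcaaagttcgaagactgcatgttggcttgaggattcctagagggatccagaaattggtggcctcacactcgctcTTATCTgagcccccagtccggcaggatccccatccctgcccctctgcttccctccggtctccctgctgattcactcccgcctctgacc
Stim1: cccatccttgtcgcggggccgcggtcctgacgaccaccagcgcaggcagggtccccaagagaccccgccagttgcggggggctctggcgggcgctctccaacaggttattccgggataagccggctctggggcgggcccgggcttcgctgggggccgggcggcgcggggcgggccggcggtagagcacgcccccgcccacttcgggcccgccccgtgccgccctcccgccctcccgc

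These lie at chr5:90772185-90772434 on the plus strand for Pf4, chr6:87777820-87778069 on the plus strand for Gp9, chr16:30310782-30311031 on the minus strand for Gp5, chr3:59262986-59263235 on the minus strand for P2ry12, chr17:35066185-35066434 on the minus strand for G6b and chr7:102267569-102267805 on the plus strand for Stim1. They are written 5′ to 3′ in the direction of the gene, and all but Stim1 end at the base before the RefSeq start. The Stim1 window was cut to 237 bases and ends at the base before the GENCODE start, ahead of the RefSeq start. Gp5 held 3 GATA matches (AGATAG on the gene's strand and 2 on the other) and 1 ETS match on the other strand. G6b held 1 GATA match, and Pf4, Gp9 and P2ry12 1 ETS match each. The Stim1 window held neither. The windows shown were picked and do not stand for the panel. Of members called lower, Treml1, Cd9, Fermt3, Plek and Tubb1 held neither kind, and the others with a window held 1 or both. Of tested members not called, Gp1ba, P2rx1, F2rl3 and Mmrn1 held 1 or both kinds, and Itga2, P2ry1, Rasgrp2 and Stim1 held neither. A link between these letters and the levels was not tested.

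Genes of the same pathway outside the panel were read from 7 lists of platelet functions, of which 72 of 73 entries were in the table and 69 were tested. Of these 17 were lower and 7 higher, beside the 5.15% and 10.3% of all tested genes given above. Without control-LNP replicate 2 the counts were 35 and 9, beside 15.7% of all tested genes lower and 15.7% higher. With all libraries, the median log2 fold change of the 69 genes was -0.98, against -4.86 for the tested members (the same with P2ry1 at its bound) and 0.15 for all tested genes.

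Of 11 genes that relay the signals of GPVI and CLEC-2, 5 were lower and 0 higher. Lyn, the Src family kinase that starts the relay, was at 73.6, 76.9 and 34.1 CPM with ITA-LNP and 782, 656, 501 and 626 CPM with control-LNP (-3.43 ± 0.39, adjusted p = 0.000484). Syk, the kinase it hands over to, was at 15.4, 0.442 and 1.79 CPM with ITA-LNP and 184, 215, 163 and 148 CPM with control-LNP (-5.45 ± 0.85, adjusted p = 0.00224), and ITA-LNP replicate 1 held most of the ITA-LNP signal. Lower too were Fcer1g, the signalling chain of GPVI and of leukocyte Fc receptors (-2.59 ± 0.54, adjusted p = 0.00953), the adaptor Lcp2 (-3.88 ± 0.96, adjusted p = 0.0215) and the exchange factor Vav1 (-4.14 ± 1.05, adjusted p = 0.0245). The calls of Lcp2 and Vav1 were each lost in 8 of 19 alternatives, 5 of them leaving out 1 library (adjusted p up to 0.0987 and 0.127). For Lcp2 these were all but ITA-LNP replicate 3 and control-LNP replicate 2, and for Vav1 all but ITA-LNP replicate 2 and control-LNP replicate 2. Leukocytes express all 5 of these genes. Fcer1g lost its call with median centring alone (adjusted p = 0.0930). Among 11 genes of integrin activation and G proteins none passed with limma-trend, while 6 were lower and 1 higher without control-LNP replicate 2. Of the 11, 4 had an unadjusted p under 0.05, and limma-voom called 0. The share of all tested genes at that unadjusted level was not counted, and is at least 15.5%. The nearest were Rap1b, the small GTPase that opens αIIbβ3, at 179, 71.9 and 112 CPM with ITA-LNP and 654, 143, 555 and 585 CPM with control-LNP (-1.88 ± 0.58, adjusted p = 0.0563; adjusted p = 0.00132 without control-LNP replicate 2), its paralog Rap1a (-1.13 ± 0.37, adjusted p = 0.0709) and the phospholipase Plcb3, with a positive fold change (3.18 ± 1.00, adjusted p = 0.0624).

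In the list of eicosanoid enzymes and other agonist receptors, 2 of 8 tested genes were lower. Alox12, the 12-lipoxygenase of platelets, was at 4.08, 7.81 and 28.02 CPM with ITA-LNP and 1406, 1229, 915 and 1172 CPM with control-LNP (-6.74 ± 0.57, adjusted p = 0.000107), with every ITA-LNP library far below every control. The thrombin receptor F2r, which did not pass, was at 4.86, 38.6 and 18.3 CPM with ITA-LNP and 1.97, 0, 5.001 and 5.25 CPM with control-LNP (2.34 ± 1.07, adjusted p = 0.179).

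Granule cargo went both ways, with 2 lower and 4 higher of 11. By p the first were Sparc, a matrix protein that wall cells also make, at 3709, 3528 and 4558 CPM with ITA-LNP and 31.5, 24.2, 12.5 and 18.9 CPM with control-LNP (7.50 ± 0.39, adjusted p = 8.34e-06), and Srgn, the proteoglycan that packs granules in platelets and leukocytes, at 253, 356 and 240.2 CPM with ITA-LNP and 1497, 4094, 1903 and 1661 CPM with control-LNP (-2.91 ± 0.35, adjusted p = 0.000676). Pdgfa, a growth factor chain for smooth muscle, was next and higher (2.90 ± 0.41, adjusted p = 0.00151). The median of this list was 0.55. The calls of Srgn and Pdgfa were each lost with median centring alone (adjusted p = 0.0712 and 0.291). For secretion, Stx11, the syntaxin of platelet and killer cell granules, was at 9.25, 0.295 and 0.412 CPM with ITA-LNP and 95.9, 68.8, 74.2 and 103 CPM with control-LNP (-5.01 ± 0.90, adjusted p = 0.00444), and the membrane-fusion protein Snap23 was lower too (-1.42 ± 0.42, adjusted p = 0.0472), a call lost in 11 of 19 alternatives, among them leaving out any 1 library other than control-LNP replicate 2 (adjusted p up to 0.253). The 5 other tested genes did not pass, the nearest being the vesicle-priming factor Unc13d (-2.99 ± 1.43, adjusted p = 0.200).

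Of 10 megakaryocyte transcription factors, 2 were lower and 1 higher, each with uses in other cells. Tal1 was at 15.1, 3.54 and 9.06 CPM with ITA-LNP and 45.7, 77.6, 36.4 and 55.9 CPM with control-LNP (-2.55 ± 0.73, adjusted p = 0.0413), Mef2c at 148, 172 and 100.1 CPM with ITA-LNP and 518, 337, 282 and 438 CPM with control-LNP (-1.48 ± 0.36, adjusted p = 0.0205) and Meis1 at 53.5, 55.3 and 48.5 CPM with ITA-LNP and 8.08, 3.29, 0.192 and 3.61 CPM with control-LNP (3.80 ± 0.92, adjusted p = 0.0196), and those 3 were also the nearest by p. Tal1 lost its call in 12 of the 19 alternatives, with any 1 library but control-LNP replicate 2 left out among them (adjusted p up to 0.201). Meis1 lost it in 8, among them without any 1 ITA-LNP library or without control-LNP replicate 3 or 4 (up to 0.146), and Mef2c in 7, among them without replicate 1 or 3 of ITA-LNP or 1 or 4 of control-LNP (up to 0.123). Of 11 tested cytoskeleton genes, 4 were lower and 2 higher. The first by p were Actn1, which encodes α-actinin 1 (2.85 ± 0.24, adjusted p = 0.000103), Tmsb4x, which encodes the actin-binding thymosin β4 (-2.40 ± 0.35, adjusted p = 0.00160), and Flna, which encodes filamin A (1.86 ± 0.30, adjusted p = 0.00253). Tmsb4x was lower, and Actn1 and Flna, which smooth muscle holds in abundance, were higher. Each of these calls was lost with median centring alone (adjusted p = 0.130 for Tmsb4x, 0.339 for Actn1 and 0.623 for Flna). Of the 24 pathway genes that passed, 6 passed in each of the 19 alternatives (Syk, Lyn, Alox12, Sparc, Stx11 and Tuba4a, the last named after its values were seen), and 18 missed the threshold in 1 or more. The share of all tested genes that passed in each alternative was not counted.

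Markers of other blood cells moved in the same direction as the panel, by different amounts. Markers of natural killer cells (6 genes) summed to 527 times their ITA-LNP level in the controls, those of neutrophils (8) 146 times (61.1 without control-LNP replicate 2), of B cells (7) 22.6 times, of T cells (7) 15.2 times and of erythroid cells (9) 6.21 times, beside 23.3 times for the platelet members. The ITA-LNP and control-LNP sums ranged over 0.824 to 1.77 and 555 to 891 CPM for natural killer cells, 45.7 to 86.5 and 925 to 26556 CPM for neutrophils, 38.9 to 198 and 2029 to 4147 CPM for B cells, 10.2 to 44.9 and 156 to 604 CPM for T cells and 2671 to 4331 and 12491 to 45432 CPM for erythroid cells. No difference between these ratios was tested. The natural killer sums with ITA-LNP rest on few reads, as 3 reads make 0.412 to 0.471 CPM there. All 6 natural killer genes passed the filter through the level of 1 group alone, so the ratio of 527 is imprecise. Monocyte and macrophage markers (8) overlapped in sum at 1238 to 2159.8 and 1558 to 2085 CPM, but went both ways singly, with 4 lower and 1 higher with ITA-LNP (4 and 2 without control-LNP replicate 2) and a median log2 fold change of -1.02. In the opposite direction, smooth muscle markers were 119 times, fibroblast markers (5) 119.8 times and endothelial markers (6) 5.12 times as high with ITA-LNP. Most of the endothelial sum in the controls was Pecam1, which platelets and leukocytes also express, at a mean of 204 CPM in the controls and 226 CPM with ITA-LNP. The other 5 endothelial markers averaged 9.14 CPM in sum in the controls and 862 CPM with ITA-LNP, 94.4 times as high, a split made after the values were seen. Of all these markers only Slc4a1, the red cell anion exchanger, was at 0 in all ITA-LNP libraries, and none was at 0 in all control-LNP libraries. CPM is a share of all reads, so the levels of these lists are not independent of one another. The part of these cell types in the fall of the platelet members was not tested.

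**Figure D5:**
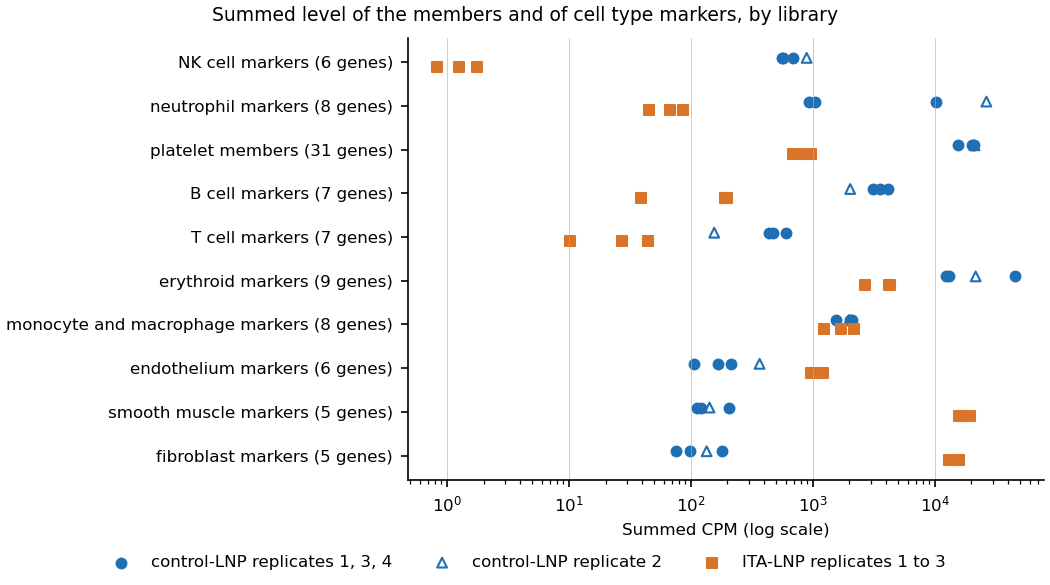
Summed CPM (log scale) of the 31 platelet members and of 9 lists of cell type markers, with 1 point per library (filled circles for control-LNP replicates 1, 3 and 4, open triangles for control-LNP replicate 2, squares for ITA-LNP). The platelet members lie at 15644 to 21218 CPM in the controls and 686 to 975 CPM with ITA-LNP, and smooth muscle and fibroblast markers lie the other way round.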

How the data were processed

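The 31 members, the pathway lists and the marker lists were chosen with earlier results of these data known. RNA of 3 ITA-LNP and 4 control-LNP abdominal aorta libraries was sequenced from transcript 3′ ends (QuantSeq, per the labels' protocols) and, as the submitters' processing notes name the build, assigned on mm10. Not given in the sources used here were aligner, counter, gene annotation, strand use and any handling of molecular identifiers. The authors deposited 1 table of log10 values, which the numbers themselves show to be log10 of CPM + 1. CPM was recovered by undoing the log, and every value then came out as a whole number of reads within 0.01. PCR copies are not independent molecules, so counting intervals and limits cover counting error only.

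Genes with an average log2(CPM + 1) over the 7 libraries that reached 1 (12636 of 32544) were tested with limma-trend (limma 3.58.1 in R 4.3.3) on log2(CPM + 1), ITA-LNP minus control-LNP, without covariates. Benjamini-Hochberg adjustment ran over all genes tested, with a threshold of 0.05, and fold changes are on that scale, which understates changes of low genes. Errors beside fold changes are SE. Alternatives changed the filter, the pseudocount, the normalization, the test, the covariates and the libraries used. Named were all members and, of each pathway list, the 3 tested genes with the smallest p plus each gene called where a list had 5 or fewer. Slc4a1, Sept5 and Apoe are named as checks. The result of 1 gene that this rule names is not reported here. Gene positions are from GENCODE vM21 and promoter windows from RefSeq (GRCm38.p6), both mm10. Equal replicate numbers did not pair libraries (correlations of deviations 0.00528, -0.0105 and -0.0173).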

Additional observations from a re-analysis of the deposited data

Results flagged for a closer look

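In 32 checks, the 4 control-LNP values of the 31 members and of their sum were compared on the log2(CPM + 1) scale. The highest or lowest library lay apart from the others in 8, by a gap over 0.829 of the group's range on that scale. The levels named below are in CPM. Chance alone gives about 1 in 20. Control-LNP replicate 2 was the library apart in 7. It was the lowest for Gp1ba at 0 CPM, Nfe2 at 0 CPM, Mmrn1 at 0.149 CPM, Rasgrp2 at 0.598 CPM and Treml1 at 0.897 CPM. It was the highest for F2rl2 at 207 CPM and Bin2 at 612 CPM. The summed level of the members was lowest in control-LNP replicate 3, at 15644 CPM.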

How the results depend on the processing

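With 19 alternative settings, 17 to 27 members were lower and 0 higher, and the count of all genes lower moved as well. It was 321 of 12636 with a replicate block (17 members). With sample weights it was 2243, and with median centring without control-LNP replicate 2 it was 2447 (27 members each). Of the 21 members, 16 were lower in every setting: Pf4, Ppbp, Gp1bb, Gp9, Gp5, Gp6, Clec1b, Itga2b, P2ry12, F2rl2, G6b, Fermt3, Plek, Rgs18, Gng11 and Nrgn. Among these, Gp9, Gp6, F2rl2, G6b and Fermt3 passed the filter through the control-LNP level alone. How many of all genes were lower in every setting was not counted, and cannot exceed the 321 with the replicate block. The median log2 fold change of the members was -5.77 with a filter at a mean of 2 and with a pseudocount of 0.25, -4.23 with a pseudocount of 4, -5.99 with median centring and -6.21 with limma-voom. Genes changed, 1957 in all, numbered 3015 with quantile normalization, 4343 with sample weights (2243 lower, 2100 higher), 4228 with median centring without control-LNP replicate 2, and 1372 to 3964 on leaving out 1 library, where 3964 (1982 in each direction) is without control-LNP replicate 2. The last of these centrings was added after seeing the data. Before centring, the median of tested genes differed between the groups by 1.13 on the log2 scale, with control-LNP replicate 2 at 0.68 and the other controls at 4.15 to 4.40.

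With a replicate block over libraries 1 to 3 of each group, 1066 genes changed and 17 members were lower, against 1372 and 18 in the same 6 libraries without it. Tubb1 missed the threshold there (adjusted p = 0.0813).

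Signs turned for 3 members, none of them past the threshold in the reported comparison. P2rx1 was -0.35 with median centring, -0.45 with quantile normalization, -0.33 with sample weights and -0.62 with centring without control-LNP replicate 2, and ran from -0.39 (without that library) to 1.33 on leaving out 1 library. F2rl3 was -0.54 with median centring and ran from -0.86 (without ITA-LNP replicate 3) to 1.31. Rasgrp2 was 0.15 with limma-voom and 0.14 with the replicate block and in the same 6 libraries without it, and ran from -2.08 (without control-LNP replicate 2) to 0.14. For these changes the cause was not tested. Members at 3 reads or fewer in each ITA-LNP library (Gp1ba, Itga2, P2ry1, Treml1, Tubb1 and Gfi1b) are limited by depth.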

Other observations

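Genes seen in a single library of a group were common beyond the members. In each ITA-LNP library, 169, 169 and 196 genes had 100 or more reads while the other libraries of the group had 3 or fewer, and F2rl3 was 1 of the 196 in replicate 3. The control-LNP libraries had 2, 41, 0 and 3 such genes. Conversely, 952 of 5381 genes (17.7%) with 100 or more reads in the other 3 controls had 3 or fewer in control-LNP replicate 2, among them Gp1ba, Mmrn1 and Nfe2, against 1, 0 and 0 genes for control-LNP replicates 1, 3 and 4. For the ITA-LNP libraries these numbers were 91, 170 and 169. No cause was tested.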
